A study of Mus musculus with 12 samples.

Results

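Alcohol dehydrogenases and aldehyde dehydrogenases were examined as 10 genes taken by symbol from the gene count table, of 36292 symbols in all: ADH1A, ADH1B, ADH1C, ADH4, ADH5, ADH6, ALDH1A1, ALDH2, ALDH1B1 and ALDH3A2. The samples were xenografts of Hep3B, a line from a human hepatocellular carcinoma, placed under the skin of female BALB/c nu/nu mice that were about 8 weeks old at inoculation. There were 4 groups of 3 mice, with 1 tumor read per mouse. Combination mice received H3B-6527 at 300 mg/kg and lenvatinib at 10 mg/kg, H3B-6527 mice and lenvatinib mice received 1 of these agents at the same dose, and vehicle mice received neither. Dosing, by oral gavage, began when tumors averaged roughly 500 mm3, and they were taken 8 hours after the last of 4 daily doses. H3B-6527 is a selective inhibitor of the FGF receptor FGFR4, and lenvatinib blocks several receptor kinases, including those for VEGF and FGF. A single cell line in mice without mature T cells limits what the groups can stand for, and each tumor was read as bulk RNA.

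Alcohol dehydrogenases oxidize alcohols to aldehydes with NAD+, and aldehyde dehydrogenases carry the aldehyde on to the acid. In the liver the class I enzymes (ADH1A, ADH1B and ADH1C, which encode the alpha, beta and gamma subunits) and class II ADH4 take up ethanol, and mitochondrial ALDH2 clears the acetaldehyde. The same families act on retinol and retinaldehyde, on formaldehyde bound to glutathione and on long-chain fatty aldehydes. In human development ADH1A is the class I gene active first in fetal liver, while ADH1B dominates in the adult organ.

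Library totals ran from 23.8 to 40.9 M (mega) counts, and expression levels are given as CPM, counts per M of the library total after TMM scaling. The smallest library was H3B-6527 replicate 3. Replicate numbers here follow the order in which the samples are listed and link no tumors between groups. The treatment labels were checked on DUSP6, a phosphatase induced by ERK, and on CYP7A1, the bile acid enzyme repressed through FGFR4. DUSP6 lay between 2.70 and 15.8 CPM in the 6 tumors that received H3B-6527, against 62.0 to 97.9 CPM in the other 6. CYP7A1 lay between 4.29 and 15.4 CPM in those 6 tumors, against at most 0.127 CPM in the others, where it had at most 5 counts per tumor. Those levels lie under the low-count cut given below, so CYP7A1 serves as a description with no test. The liver identity of the tumors was clear in all groups, with ALB between 34100 and 91850 CPM and none of 9 hepatocyte and liver tumor markers under 1 CPM throughout. The level of these markers differed between groups. Their sum averaged 179600 CPM with the combination, 175700 CPM with H3B-6527, 106800 CPM with lenvatinib and 92710 CPM with vehicle. ALB rose by 1.16 ± 0.17 with H3B-6527 against vehicle (log2, SE, n = 3 per group, edgeR adjusted p = 1.3e-04), while APOB stayed between 23000 and 27200 CPM. All 10 genes passed the filter on low counts, which asked for 0.279 CPM in at least 3 libraries. ADH1C passed it only through the groups that received H3B-6527, so its values are a description with no test. Counts of called genes are given over the other 9, except where members or all 10 genes are said to be counted.

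Class I alcohol dehydrogenase transcripts rose with H3B-6527, alone and together with lenvatinib. ADH1A had 276.8, 315.8 and 217.9 CPM in combination tumors, 283.4, 258.2 and 126.9 CPM in H3B-6527 tumors, 36.6, 26.4 and 28.0 CPM in lenvatinib tumors, and 20.5, 16.4 and 16.4 CPM in vehicle tumors. Every tumor that received H3B-6527 lay above every tumor that did not. The log2 fold change of ADH1A was 3.65 ± 0.28 for H3B-6527 against vehicle (SE, n = 3 per group, adjusted p = 2.85e-06), a 12.6-fold rise. It was 3.93 ± 0.29 for the combination against vehicle (adjusted p = 2.3e-06) and 3.15 ± 0.28 for the combination against lenvatinib (adjusted p = 2e-05). In bulk RNA, more cells that express a gene and more RNA per cell cannot be told apart.

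ADH1B, the class I gene typical of adult liver, had 31.3, 34.9 and 15.04 CPM in combination tumors, 58.2, 19.7 and 7.0 CPM in H3B-6527 tumors, 2.64, 1.65 and 2.12 CPM in lenvatinib tumors, and 1.86, 1.08 and 1.11 CPM in vehicle tumors. The 3 H3B-6527 tumors differed widely among themselves, yet the lowest of them was above all lenvatinib and vehicle tumors. ADH1B rose by 4.42 ± 0.73 with H3B-6527 against vehicle (log2, SE, n = 3 per group, adjusted p = 6.19e-04), or by 3.35 without H3B-6527 replicate 1 (adjusted p = 8.53e-04). It rose by 4.34 ± 0.73 with the combination against vehicle (adjusted p = 6.83e-04) and by 3.65 ± 0.69 with the combination against lenvatinib (adjusted p = 0.0023).

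ADH1C stayed rare. It had 0.888, 1.52 and 1.58 CPM in combination tumors, 1.21, 1.61 and 0.796 CPM in H3B-6527 tumors, 0.304, 0.128 and 0.0769 CPM in lenvatinib tumors, and 0.253, 0.127 and 0.0807 CPM in vehicle tumors. The groups again did not overlap between tumors with and without H3B-6527. Pooled over 3 tumors, 125 counts with H3B-6527 stood against 17 with vehicle, a ratio of 8.35 after division by the summed TMM-scaled library sizes, with a 95% counting interval of 5.01 to 14.8. Scaled in the same way, 134 counts with the combination against 17 with vehicle gave 8.92 (5.37 to 15.8). Against 18 counts with lenvatinib, the 134 with the combination gave 7.95 (4.84 to 13.8). These intervals cover counting error only and leave out the spread between tumors. They are no test of ADH1C, which passed the filter only through groups with H3B-6527.

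**Figure D1:**
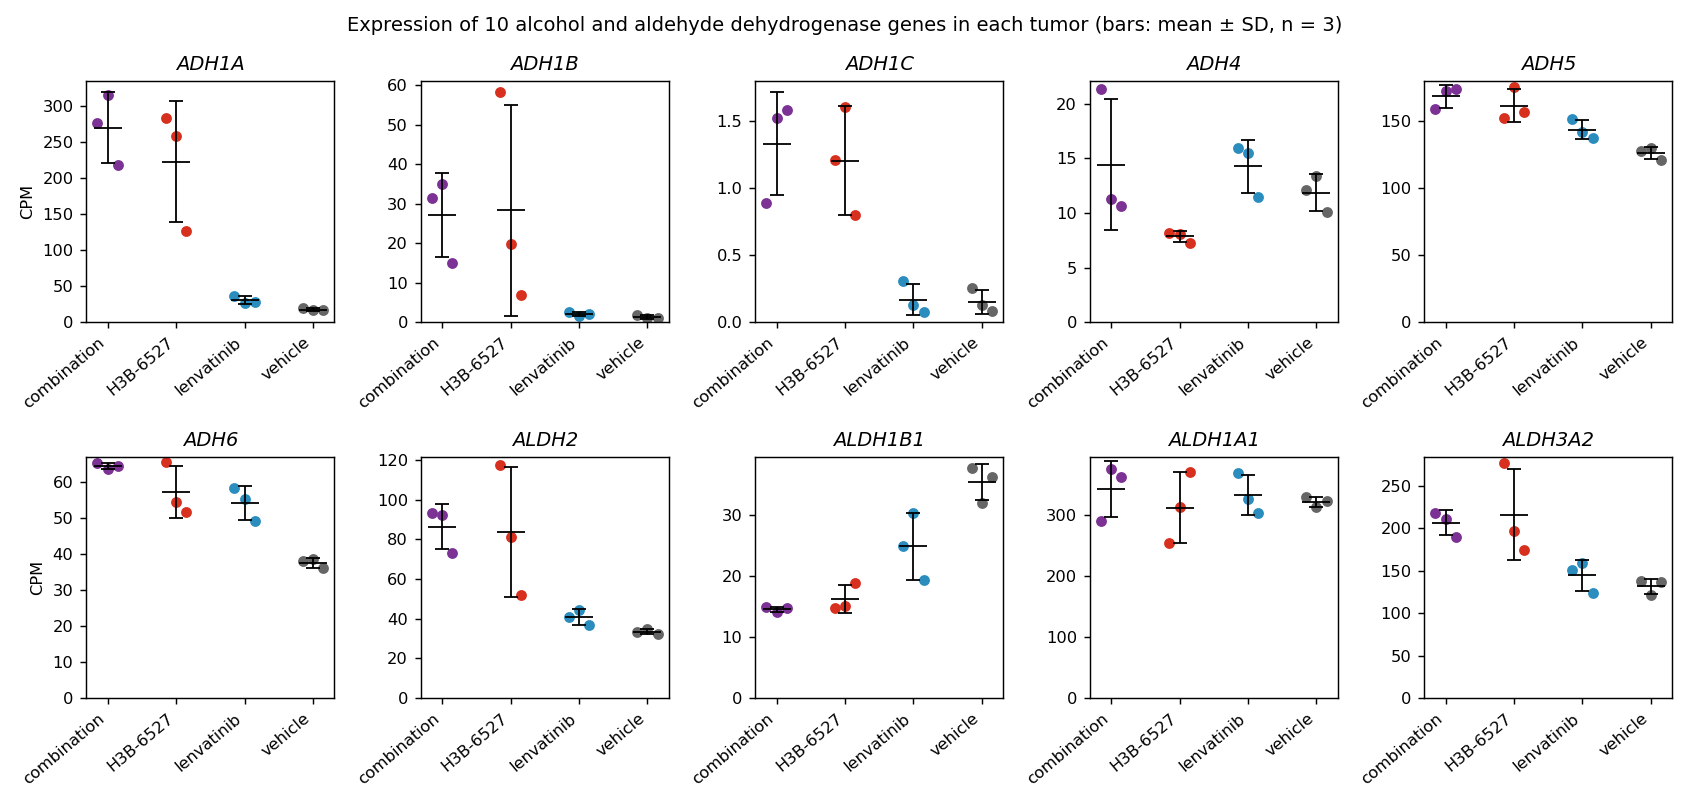
Expression in CPM (linear axes from 0) of the 10 genes in each tumor, with points for tumors and bars for mean ± SD (n = 3 per group). In the ADH1A panel the tumors that received H3B-6527 lie between 126.9 and 315.8 CPM and the other tumors between 16.4 and 36.6 CPM, while the 4 groups overlap in the ALDH1A1 panel.

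The 3 class I genes are close paralogs, so estimated counts can be split between them wrongly, and their sum was therefore tested as well. Summed class I transcripts had a mean of 298.6 ± 59.6 CPM with the combination, 252.3 ± 106.6 CPM with H3B-6527, 32.6 ± 6.07 CPM with lenvatinib and 19.3 ± 2.86 CPM with vehicle (SD, n = 3). Combination and H3B-6527 tumors overlapped, and both groups lay above the other 2. The sum rose by 3.71 ± 0.31 with H3B-6527 against vehicle (log2, SE, adjusted p = 4.27e-06), by 3.96 ± 0.32 with the combination against vehicle (adjusted p = 3.8e-06) and by 3.19 ± 0.30 with the combination against lenvatinib (adjusted p = 3.27e-05).

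ADH1A held most of the class I counts in every tumor. Its share was 90.7 ± 1.90% with the combination, 89.8 ± 6.2% with H3B-6527, 93.0 ± 0.61% with lenvatinib and 92.4 ± 1.47% with vehicle (SD, n = 3). The ADH1B share was 8.82 ± 2.09%, 9.74 ± 6.33%, 6.52 ± 0.59% and 6.88 ± 1.16% in the same order of groups, and these ranges overlapped. A single tumor stood apart: in H3B-6527 replicate 1 ADH1B made up 17.0% of class I counts, against at most 10.1% in the other 11 tumors. The shares are of counts, not of molecules, because transcript lengths were not used here.

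**Figure D2:**
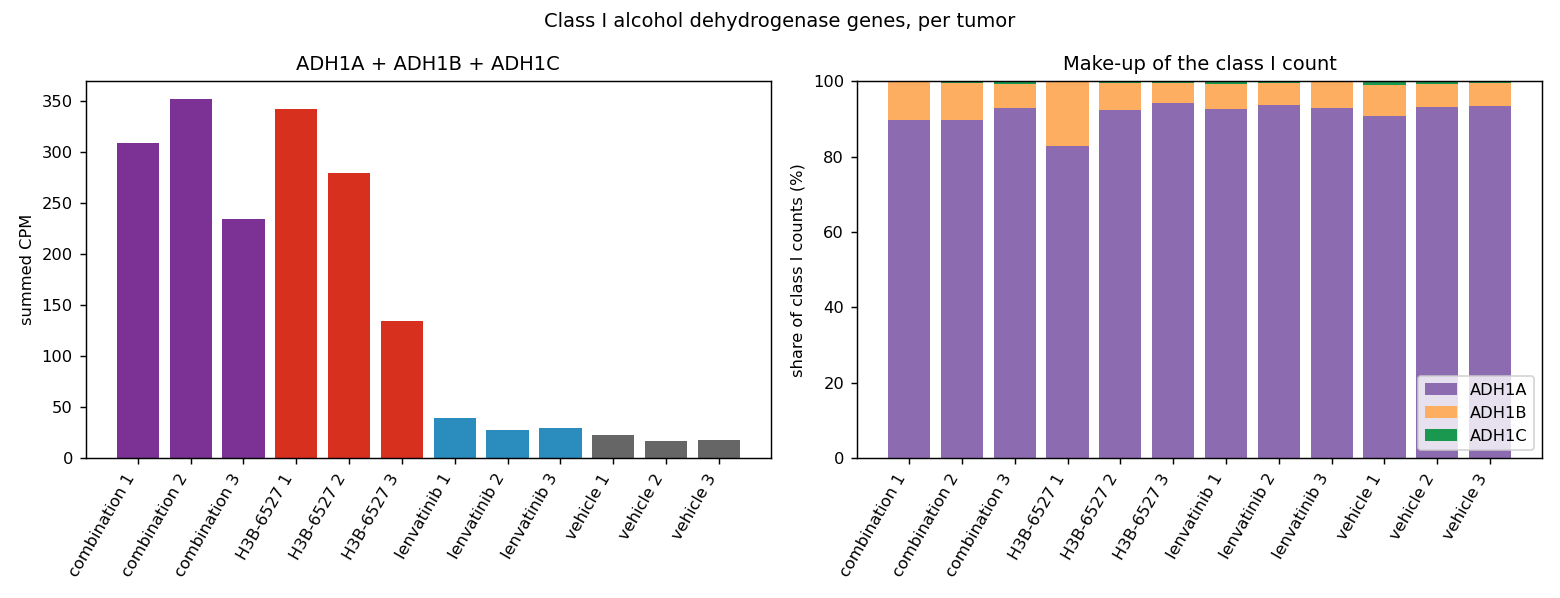
Summed CPM of ADH1A, ADH1B and ADH1C per tumor (left) and the share of each gene in the class I counts in percent (right). The 6 tumors that received H3B-6527 reach 134.7 to 352.2 CPM, and ADH1A makes up 82.7 to 94.2% of the class I counts in every tumor.

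Among the aldehyde dehydrogenases, ALDH2, the mitochondrial enzyme that removes acetaldehyde, rose. It had 93.5, 92.1 and 73.2 CPM in combination tumors, 117.4, 81.3 and 52.1 CPM in H3B-6527 tumors, 41.03, 44.6 and 36.6 CPM in lenvatinib tumors, and 33.5, 34.6 and 32.2 CPM in vehicle tumors. The lowest tumor with H3B-6527 lay above the highest without it. ALDH2 rose by 1.32 ± 0.22 with H3B-6527 against vehicle (log2, SE, n = 3 per group, adjusted p = 5.09e-04), by 1.37 ± 0.22 with the combination against vehicle (adjusted p = 4.1e-04) and by 1.08 ± 0.22 with the combination against lenvatinib (adjusted p = 0.00284).

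ALDH1B1, the other mitochondrial member, accepts acetaldehyde and retinaldehyde and is known as a marker of progenitor cells in some epithelia; it fell. ALDH1B1 had 14.9, 14.1 and 14.7 CPM in combination tumors, 14.8, 14.99 and 18.9 CPM in H3B-6527 tumors, 24.9, 30.3 and 19.3 CPM in lenvatinib tumors, and 37.7, 32.0 and 36.2 CPM in vehicle tumors. Lenvatinib tumors lay between the others, below all vehicle tumors and above all tumors that received H3B-6527. It fell by 1.13 ± 0.15 with H3B-6527 against vehicle (log2, SE, adjusted p = 5.3e-05), by 1.28 ± 0.15 with the combination against vehicle (adjusted p = 2.19e-05) and by 0.77 ± 0.15 with the combination against lenvatinib (adjusted p = 0.00152). The mitochondrial pair thus moved in opposite directions in all 3 of these comparisons, and the ALDH1B1 call was the only fall among the 10 genes in them.

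ALDH3A2, the fatty aldehyde dehydrogenase whose loss causes Sjögren-Larsson syndrome, had 217.9, 211.4 and 189.6 CPM in combination tumors, 276.4, 197.0 and 174.6 CPM in H3B-6527 tumors, 150.3, 159.3 and 123.5 CPM in lenvatinib tumors, and 137.4, 121.3 and 136.4 CPM in vehicle tumors. Tumors with and without H3B-6527 did not overlap. It rose by 0.71 ± 0.15 with H3B-6527 against vehicle (log2, SE, adjusted p = 0.00174), by 0.65 ± 0.15 with the combination against vehicle (adjusted p = 0.00316) and by 0.51 ± 0.15 with the combination against lenvatinib (adjusted p = 0.016). The last call was lost when lenvatinib replicate 3, combination replicate 1 or combination replicate 2 was left out (adjusted p up to 0.0695).

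ALDH1A1, the cytosolic retinaldehyde dehydrogenase that makes retinoic acid, showed no called change. It had 290.3, 375.2 and 361.9 CPM in combination tumors, 253.3, 312.8 and 369.2 CPM in H3B-6527 tumors, 368.2, 325.6 and 302.5 CPM in lenvatinib tumors, and 328.2, 311.9 and 322.2 CPM in vehicle tumors. All 4 groups overlapped. The log2 fold change for H3B-6527 against vehicle was −0.04 with a 95% interval of −0.33 to 0.25 (adjusted p = 0.822), and its sign turned with upper-quartile scaling and without H3B-6527 replicate 1. For the combination against vehicle it was 0.09 with an interval of −0.20 to 0.39 (adjusted p = 0.586), and here the sign turned with scaling by library totals.

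Outside class I, the alcohol dehydrogenases moved less. ADH5, the class III enzyme that oxidizes the adduct of formaldehyde and glutathione and reduces S-nitrosoglutathione, had 158.5, 172.3 and 173.9 CPM in combination tumors, 152.2, 174.9 and 156.6 CPM in H3B-6527 tumors, 151.3, 141.5 and 137.2 CPM in lenvatinib tumors, and 127.6, 129.5 and 120.7 CPM in vehicle tumors. It rose by 0.36 ± 0.08 with H3B-6527 against vehicle (log2, SE, adjusted p = 0.00238), a 1.28-fold change, and by 0.42 ± 0.08 with the combination against vehicle (adjusted p = 7.85e-04). Against lenvatinib the combination gave 0.23 ± 0.08 (adjusted p = 0.0327), a call lost in 6 of 13 alternatives, among them leaving out lenvatinib replicate 2 or 3 or combination replicate 2 or 3 (adjusted p up to 0.202).

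ADH6, the class V gene whose enzyme is little characterized, had 65.3, 63.6 and 64.4 CPM in combination tumors, 65.5, 54.5 and 51.8 CPM in H3B-6527 tumors, 58.3, 55.4 and 49.0 CPM in lenvatinib tumors, and 38.0, 38.5 and 36.0 CPM in vehicle tumors. Here the 3 treated groups stood together above vehicle, and H3B-6527 and lenvatinib tumors overlapped. ADH6 rose by 0.61 ± 0.09 with H3B-6527 against vehicle (log2, SE, adjusted p = 1.91e-04) and by 0.78 ± 0.10 with the combination against vehicle (adjusted p = 3.01e-05). For the combination against lenvatinib the value was 0.25 ± 0.09 (adjusted p = 0.0508), and it passed in 6 of 13 alternatives (adjusted p from 0.022 to 0.208).

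ADH4, the class II enzyme active on ethanol and retinol in liver, had 21.4, 11.3 and 10.6 CPM in combination tumors, 8.20, 8.08 and 7.29 CPM in H3B-6527 tumors, 15.9, 15.5 and 11.5 CPM in lenvatinib tumors, and 12.1, 13.4 and 10.1 CPM in vehicle tumors. The H3B-6527 group was the lowest and overlapped no other group. Its log2 fold change against vehicle was −0.59 ± 0.24 (SE, adjusted p = 0.0562), which missed the threshold but passed with DESeq2, with library totals and with the 2 groups alone (adjusted p from 0.0113 to 0.155 over 13 alternatives). Against lenvatinib, ADH4 fell by 0.86 ± 0.24 with H3B-6527 (adjusted p = 0.0132). The combination against vehicle gave 0.28 ± 0.23 (adjusted p = 0.343), or −0.12 without combination replicate 1, whose 21.4 CPM was far above the other 2 combination tumors.

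With H3B-6527 against vehicle, 6 of the 9 genes other than ADH1C rose and 1 fell, where 25.2% of all 15836 genes tested were called higher and 24.3% lower. The median log2 fold change was 0.61 over the 9 genes and 0.01 over all genes tested. With the combination against vehicle 6 also rose and 1 fell, with 24.8% of all genes called higher and 25.3% lower, and a median of 0.65 over the 9 genes. These 2 comparisons share their vehicle tumors. The combination against lenvatinib, which asks for the H3B-6527 effect in lenvatinib-treated mice and uses none of the tumors of the first comparison, gave 5 higher and 1 lower of the 9, with 19.1% of all genes called higher and 20.9% lower and a median of 0.25 over the 9 genes. Scaling by library totals in place of TMM shifted the median of all genes by −0.12 with H3B-6527 against vehicle, −0.14 with the combination against vehicle and −0.10 with the combination against lenvatinib. It moved the split of genes called higher and lower to 3022 and 4960 against the main 3987 and 3842 for H3B-6527 against vehicle, to 2923 and 5339 against 3924 and 4006 for the combination against vehicle, and to 2293 and 4348 against 3020 and 3309 for the combination against lenvatinib. The calls against vehicle stood under that scaling and ADH4 was added as a fall with H3B-6527, while for the combination against lenvatinib the call of ADH5 was lost. In that comparison ADH1A, ADH1B and ALDH2 were called higher and ALDH1B1 lower in every alternative. ALDH3A2 kept its call in 10 of 13 alternatives and ADH5 in 7 of 13, while ADH6 was called higher in 6 of 13. Across the 2 separate sets of tumors, 7 of the 9 genes had the same sign and 6 were called in the same direction in both. How often all genes tested were alike in both sets was not counted, so these numbers cannot be read as particular to the 9 genes. ADH1B and ADH1A stood at ranks 31 and 58 of the 15836 genes when ordered from the largest rise with H3B-6527 against vehicle, and at ranks 28 and 49 with the combination against lenvatinib.

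**Figure D3:**
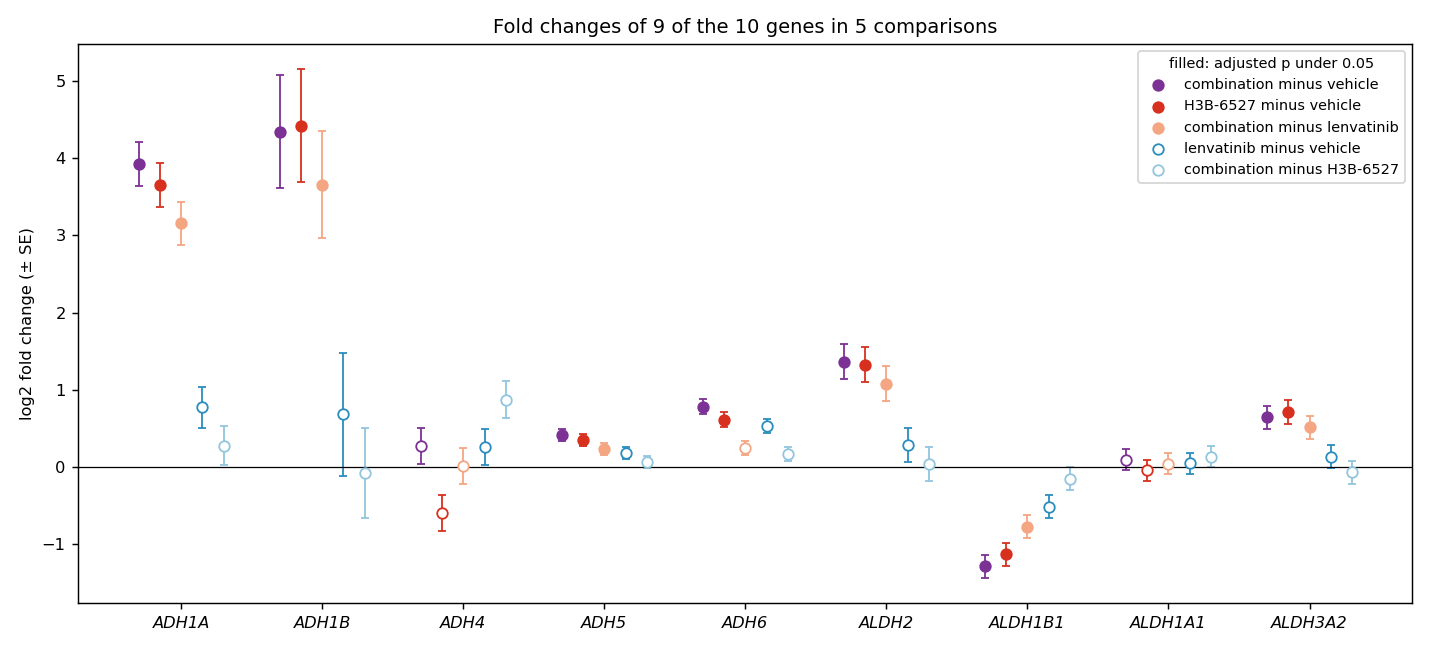
Log2 fold changes ± SE (n = 3 tumors per group) of the 9 genes other than ADH1C in 5 comparisons, filled where adjusted p was under 0.05. ADH1A and ADH1B rise by 3.15 to 4.42 in the 3 comparisons that add H3B-6527, ALDH1B1 falls in all 3, and no value of the 2 comparisons that add lenvatinib is filled.

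The effect of lenvatinib alone was read against vehicle. Of all genes tested, 0% (0 of 15836) were called with edgeR, 1698 had an unadjusted p under 0.05, DESeq2 called 245 and voom 6. None of the 10 genes was called. In ADH1A, ADH5, ADH6 and ALDH2, all 3 lenvatinib tumors lay above all 3 vehicle tumors, and in ALDH1B1 all 3 lay below, against 11.8% of all genes above and 10.9% below without overlap. ADH6 had the smallest p of the 10, with a log2 fold change of 0.53 ± 0.09 (SE, n = 3 per group, adjusted p = 0.0824), and it passed with DESeq2, without a low-count filter and with the 2 groups alone (adjusted p from 5.93e-04 to 0.482 over 13 alternatives). ALDH1B1 followed with −0.51 ± 0.15 (adjusted p = 0.218). ADH1A had 0.77 ± 0.26 (adjusted p = 0.306, or 0.0398 with the 2 groups alone). The median over the 10 genes was 0.23, against 0.01 over all genes.

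Adding lenvatinib to H3B-6527 changed none of the 10 genes with edgeR, where 0.0126% of all genes were called higher and 0% lower, and 1492 genes had an unadjusted p under 0.05. The largest value was that of ADH4, 0.87 ± 0.24 for the combination against H3B-6527 (log2, SE, adjusted p = 0.344), and DESeq2 called it (adjusted p = 0.0458). For ADH1A the value was 0.28 with a 95% interval of −0.27 to 0.83, for ALDH2 0.04 with an interval of −0.44 to 0.52, and for ALDH1B1 −0.15 with an interval of −0.48 to 0.17. H3B-6527 set against lenvatinib gave 4 of the 9 genes higher (ADH1A, ADH1B, ALDH2 and ALDH3A2) and 2 lower (ADH4 and ALDH1B1), with 20.5% of all genes called higher and 20.6% lower. With library totals 2562 genes were higher and 3989 lower there, against the main 3248 and 3265. ADH6 differed between the single agents by 0.08 with an interval of −0.12 to 0.28.

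The contrast of the combination minus both single agents plus vehicle asks whether the agents' log2 effects added up. Of all genes 0% were called with edgeR, DESeq2 called 18 and 854 had an unadjusted p under 0.05. None of the 10 genes was called by either tool. ADH6 had the smallest p among them, with −0.36 ± 0.13 (unadjusted p = 0.0174 by edgeR, adjusted p = 0.799). Against vehicle its values were 0.78 with the combination, 0.61 with H3B-6527 and 0.53 with lenvatinib. ADH1A had −0.50 ± 0.36 (adjusted p = 0.932) and ADH4 0.61 ± 0.33 (adjusted p = 0.917).

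The genes differed between tumors of the same group. Within the H3B-6527 group, replicate 1 was highest and replicate 3 lowest in 6 of the 10 genes, ADH1A, ADH1B, ADH4, ADH6, ALDH2 and ALDH3A2. The same tumors had the highest and lowest CYP7A1 (15.4 and 4.65 CPM) and ALB (91850 and 60490 CPM). DUSP6 ran the other way, with 2.70 CPM in replicate 1 and 7.62 CPM in replicate 3, and so did ALDH1A1 and ALDH1B1. ADH5 and ADH1C had replicate 2 highest. In the combination group, replicate 3 was lowest in 5 of the 10 genes, ADH1A, ADH1B, ADH4, ALDH2 and ALDH3A2, as in CYP7A1 (4.29 CPM), and highest in DUSP6 (15.8 CPM). In the other 5 it was not the lowest there, and in ADH1C and ADH5 it was the highest. Over all genes tested, replicates 1 and 3 were also the most distant pair in each of these groups. Their root-mean-square difference in log2 CPM was 0.70 with H3B-6527 and 0.461 with the combination. Other pairs of the same groups reached at most 0.565 and 0.417. How many of all genes shared these orders was not counted, so they cannot be read as particular to the 10 genes. Replicate 3 of the H3B-6527 group was also the smallest library with 23.8 M counts, and the part of library size or of drug exposure in this order was not tested. Without that library the calls on the 9 genes for H3B-6527 against vehicle were the same.

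**Figure D4:**
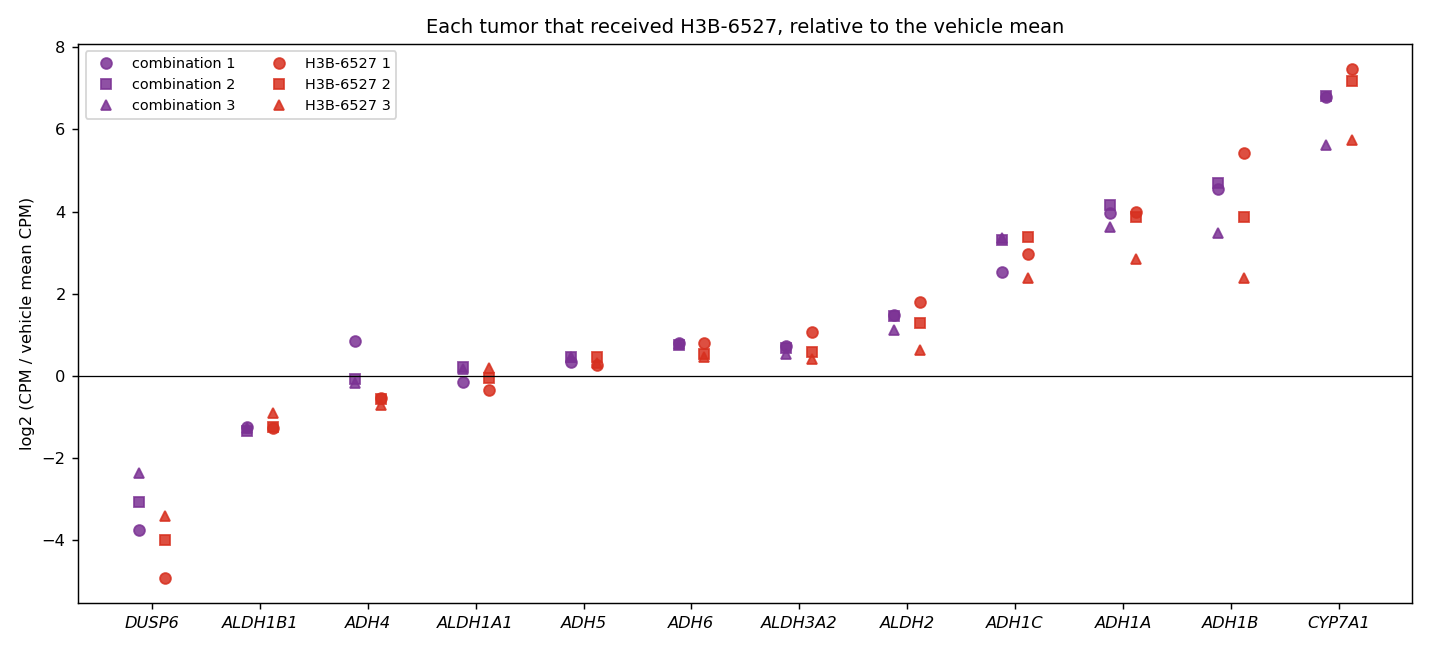
Log2 ratio of CPM to the vehicle mean for each of the 6 tumors that received H3B-6527, with colours for groups and symbols for replicates, ordered by gene. Replicate 3 of the H3B-6527 group lies lowest among its group in ADH1A (126.9 CPM), ADH1B (7.0 CPM), ALDH2 (52.1 CPM) and CYP7A1 (4.65 CPM), and highest in DUSP6 (7.62 CPM).

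Markers of other cell types were looked up because ADH1B and ALDH1A1 are also strong in fat and stroma. Of 5 adipocyte markers, ADIPOQ, FABP4 and LEP reached at most 0.0627 CPM in any tumor, and the summed list (37.1 to 54.6 CPM with the combination, 32.3 to 74.0 CPM with H3B-6527, 7.19 to 10.8 CPM with lenvatinib and 5.86 to 7.60 CPM with vehicle) came almost all from the lipid droplet genes PLIN1 and CIDEC. PLIN1 averaged 41.5 CPM with the combination, 46.8 CPM with H3B-6527, 5.36 CPM with lenvatinib and 3.45 CPM with vehicle, and CIDEC 3.88, 4.16, 3.39 and 3.52 CPM in the same order of groups. Of 7 endothelial markers 6 were in the table, all under 1 CPM, with sums of 0.380 to 0.506, 0.257 to 0.461, 0.321 to 0.462 and 0.236 to 0.531 CPM in the same order of groups. The fibroblast list summed to 58.3 to 59.1, 48.8 to 61.3, 102.9 to 119.5 and 115.1 to 123.8 CPM, almost all from PDGFRA and PDGFRB, while DCN and LUM reached at most 0.178 CPM. The macrophage list summed to 159.3 to 192.8, 148.8 to 204.5, 176.2 to 184.0 and 195.1 to 213.0 CPM, mostly CD68 and LYZ, which went opposite ways. LYZ averaged 9.47, 9.51, 76.2 and 107 CPM in that order of groups, whereas CD68 averaged 158, 156, 101 and 93.0 CPM. Among the low markers, PTPRC averaged 0.947, 0.756, 0.616 and 0.379 CPM, and ADGRE1 1.53, 1.64, 1.29 and 0.816 CPM. CSF1R averaged 1.07, 1.10, 0.817 and 0.732 CPM, and CD14 0.517, 0.508, 0.314 and 0.306 CPM. These ran with CD68, while MRC1 did not, with 0.0357, 0.115, 0.131 and 0.0955 CPM. The pericyte and smooth muscle list summed to 12.7 to 14.6, 12.6 to 14.0, 14.5 to 17.1 and 15.9 to 19.4 CPM, with ACTA2 and DES at most 0.223 CPM. Its members differed in direction. MYH11 averaged 3.72, 4.49, 6.9 and 7.81 CPM, CSPG4 8.8, 8.44, 8.2 and 9.11 CPM, and RGS5 0.689, 0.468, 0.449 and 0.327 CPM. No marker in these lists was at 0 in all tumors, and the part of the lists that moved, or of mouse reads, in the results was not tested.

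The genes whose levels followed each member most closely were found by the root-mean-square difference in log2 CPM over the 12 tumors after centring each gene on its own mean, among 12038 other genes with a mean log2 CPM of at least 1. For ADH1A, whose own spread was 1.73, these were KNG1 (0.211), a kininogen of plasma, APOA5 (0.222), an apolipoprotein, and PLIN1 (0.249). For ADH1B (spread 2.01) they were the ethanolamine kinase ETNK2 (0.287), APOC3 (0.388) and haptoglobin, HP (0.43). For ALDH2 (spread 0.645) they were complement C2 (0.0824), the ribokinase RBKS (0.0862) and the epithelial cadherin CDH1 (0.0922). For ALDH3A2 (spread 0.35) they were HSD17B4 (0.071) and HADHB (0.072), both enzymes of fatty acid beta-oxidation, and DCAF11 (0.0814). For ALDH1B1 (spread 0.533) they were FP565260.1 (0.0908), DIMT1 (0.112), which modifies ribosomal RNA, and NAA15 (0.122), a subunit of an N-terminal acetyltransferase. For ADH5 (spread 0.174) they were AGPAT1 (0.0386), ABCC2 (0.0544) and COQ9 (0.0601). ADH6 (spread 0.305) had ENPP3 (0.0954), TRPC1 (0.104) and TDP2 (0.106), and ALDH1A1 (spread 0.16) had SURF4 (0.0661), RPN1 (0.0793) and ABHD12 (0.0835). ADH4 had no close follower relative to its spread of 0.429, the nearest being ACSL6 at 0.252, UQCC3 at 0.255 and PWWP2B at 0.258.

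Of 17 other ADH and ALDH genes 14 were tested, and 2 of these, ALDH1A2 and ALDH1L1, passed the filter only through groups with H3B-6527 and are left out of the counts. Of the remaining 12, 7 rose and 2 fell with H3B-6527 against vehicle (25.2% and 24.3% of all genes), with a median log2 fold change of 0.66 against 0.01 over all genes. With the combination against lenvatinib 6 rose and 2 fell (19.1% and 20.9% of all genes, median 0.41). With the combination against vehicle 6 rose and 3 fell (24.8% and 25.3% of all genes, median 0.43). Among these falls, ALDH18A1 had a log2 value of −0.37 ± 0.14 (SE, edgeR adjusted p = 0.0427). Its call held in 7 of 13 alternatives (adjusted p up to 0.145) and was lost without any 1 vehicle replicate. None of the 12 was called with lenvatinib against vehicle. ADHFE1, an iron-dependent relative of the alcohol dehydrogenases, averaged 10.9 ± 0.79 CPM with the combination, 9.89 ± 3.93 CPM with H3B-6527, 2.69 ± 0.14 CPM with lenvatinib and 1.80 ± 0.47 CPM with vehicle (SD, n = 3), and rose by 2.46 ± 0.26 with H3B-6527 against vehicle (adjusted p = 1.14e-05). ALDH6A1 of valine breakdown rose by 1.75 ± 0.19 (adjusted p = 2.06e-05), ALDH8A1 of the kynurenine pathway by 1.49 ± 0.13 (adjusted p = 2.85e-06) and ALDH5A1, the succinic semialdehyde dehydrogenase of GABA breakdown, by 1.30 ± 0.20 (adjusted p = 2.17e-04). A rise of 1.67 ± 0.325 was also called for ALDH3B1 (adjusted p = 0.00129).

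Members of amino acid pathways did not all rise. ALDH7A1 of lysine breakdown rose by 0.60 ± 0.10 with H3B-6527 against vehicle (adjusted p = 2.39e-04), whereas ALDH4A1, which completes proline breakdown, fell by 0.79 ± 0.15 (adjusted p = 7.26e-04). ALDH4A1 averaged 85.7 ± 8.52 CPM with the combination, 76.7 ± 18.7 CPM with H3B-6527, 133.6 ± 10.4 CPM with lenvatinib and 132.9 ± 5.99 CPM with vehicle (SD, n = 3). ALDH16A1, which lacks the catalytic cysteine, fell by 0.59 ± 0.14 (adjusted p = 0.00417). The retinaldehyde dehydrogenase ALDH1A2 averaged 0.612 ± 0.168 CPM with the combination, 0.790 ± 0.430 CPM with H3B-6527, 0.122 ± 0.0869 CPM with lenvatinib and 0.0611 ± 0.0287 CPM with vehicle (SD, n = 3), the last at or under the floor of 3 counts. ALDH3A1 rose by 0.73 ± 0.25 (adjusted p = 0.0281), a call lost in 5 of 13 alternatives, without vehicle replicate 1, vehicle replicate 3 or H3B-6527 replicate 3 among them (adjusted p up to 0.103). ALDH1A3 had no counts in any tumor.

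**Figure D5:**
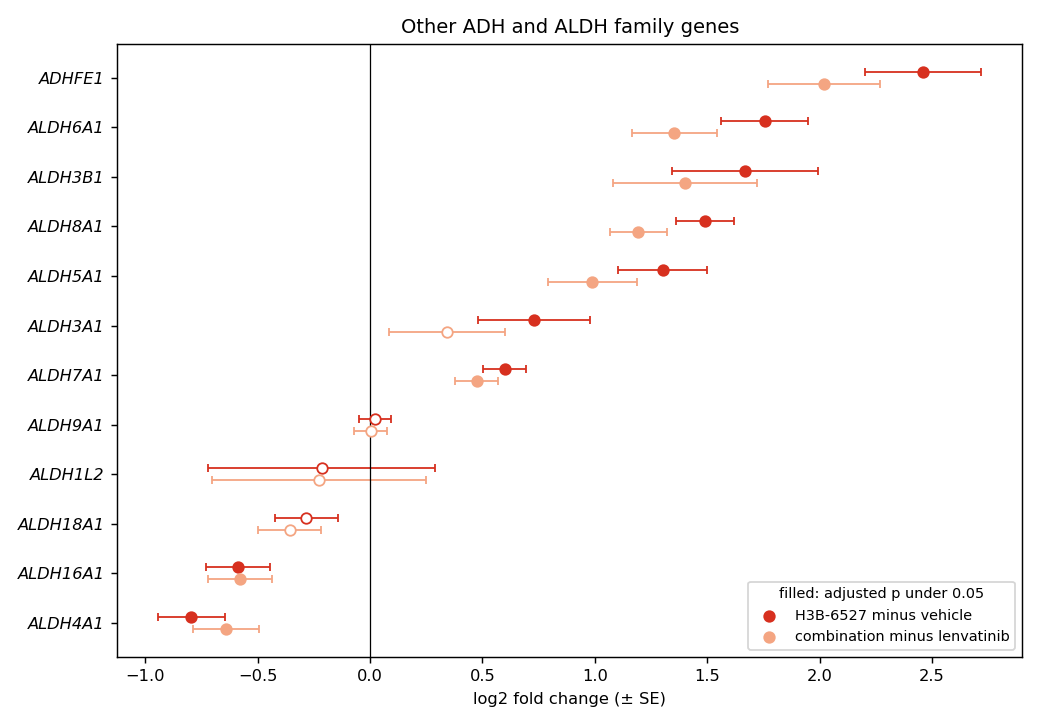
Log2 fold changes ± SE (n = 3 tumors per group) of the 12 other ADH and ALDH genes that passed the filter in groups with and without H3B-6527, for H3B-6527 against vehicle and for the combination against lenvatinib, filled where adjusted p was under 0.05. ADHFE1, ALDH6A1, ALDH3B1, ALDH8A1 and ALDH5A1 lie well above 0 in both, and ALDH4A1 and ALDH16A1 lie below 0 in both.

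Genes of the pathways around these enzymes went in both directions with H3B-6527 against vehicle, where 25.2% of all genes rose and 24.3% fell. Of 11 ethanol and acetate genes tested, 4 rose and 4 fell (median 0.18). Catalase, CAT, a minor route of ethanol oxidation, rose by 1.59 ± 0.18 (log2, SE, n = 3 per group, adjusted p = 1.76e-05) and the acetyl-CoA hydrolase ACOT12 by 2.08 ± 0.17 (adjusted p = 2e-06). The redox shuttle enzyme GPD1 rose by 1.82 ± 0.22 (adjusted p = 4.44e-05), while the transaminase GOT1, which serves the malate-aspartate shuttle, fell by 1.52 ± 0.14 (adjusted p = 4.63e-06).

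Of 18 retinoid genes tested, 2 (STRA6 and CRABP2) passed the filter only through groups without H3B-6527. Of the other 16, 8 rose and 1 fell (median 0.41), where 25.2% of all genes rose and 24.3% fell. Over all 18, 8 rose and 2 fell, or 5 and 1 without vehicle replicate 3. Without that library 3239 of all genes were called higher and 3105 lower, against the main 3987 and 3842. CYP26B1, which degrades retinoic acid, fell by 2.77 ± 0.23 (log2, SE, adjusted p = 3.39e-06), with 8.12 ± 1.69 CPM in combination tumors, 4.61 ± 1.03 CPM in H3B-6527 tumors, 32.6 ± 7.58 CPM in lenvatinib tumors and 31.3 ± 6.34 CPM in vehicle tumors (SD, n = 3). The retinoid X receptor RXRA rose by 1.08 ± 0.09 (adjusted p = 1.82e-06), and the retinol dehydrogenases RDH16 and DHRS4 rose by 1.43 ± 0.20 (adjusted p = 7.5e-05) and by 1.02 ± 0.12 (adjusted p = 2.36e-05). These rises stood beside an ALDH1A1 level without a called change.

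Of 13 formaldehyde and glutathione genes, 5 rose and 3 fell (median −0.12), where 25.2% of all genes rose and 24.3% fell. Both glyoxalases rose, HAGH by 1.53 ± 0.15 (adjusted p = 5.02e-06) and GLO1 by 0.73 ± 0.08 (adjusted p = 1.37e-05), and the mitochondrial folate enzyme MTHFD1L fell by 1.66 ± 0.19 (adjusted p = 2.79e-05). Of 15 aldo-keto and carbonyl reductases, 5 rose and 1 fell (median 0.10), beside the same shares of all genes. AKR1C3 had a value of 1.39 ± 0.16 (adjusted p = 1.79e-05) but has close paralogs in the list, so its level is uncertain, and DHRS2 fell by 1.29 ± 0.29 (adjusted p = 0.00243).

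Of 22 liver transcription factors, 11 rose and 3 fell with H3B-6527 against vehicle (median 0.34), where 25.2% of all genes rose and 24.3% fell, and 11 rose and 2 fell with the combination against lenvatinib (19.1% and 20.9% of all genes). ONECUT1 rose by 1.55 ± 0.11 (log2, SE, adjusted p = 1.06e-06), the orphan receptor ESRRG by 1.76 ± 0.16 (adjusted p = 3.41e-06) and the fatty acid receptor PPARA by 1.57 ± 0.19 (adjusted p = 5.36e-05). HLF, a bZIP factor of the PAR family, fell by 2.20 ± 0.19 (adjusted p = 3.16e-06), with 1.67 ± 0.29 CPM in combination tumors, 1.26 ± 0.30 CPM in H3B-6527 tumors, 2.89 ± 0.19 CPM in lenvatinib tumors and 5.83 ± 0.33 CPM in vehicle tumors (SD, n = 3).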

How the data were processed

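RNA of 12 tumors, each library run on 4 lanes, was quantified by the authors, who deposited expected counts: kallisto's estimated counts per gene symbol, unscaled, with 40.0% of values not whole (tolerance 1e-06). STAR, kallisto, GRCh37 and GRCm38 are named in the submitters' processing notes; versions, roles, annotation and filters are not given in the sources used here. All samples are labelled mouse but the symbols are human. No human annotation or sequence was at hand, so coordinates, lengths, promoters and proteins were not used here.

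Counts were rounded, filtered with filterByExpr on the 4 groups (15836 genes) and tested with edgeR 4.0.16 in R 4.3.3 (TMM, robust dispersion, quasi-likelihood F-test, 2-sided), all 12 libraries in 1 fit without covariates, since the labels give no batch or pairing. Benjamini-Hochberg adjustment ran over the 15836 genes of each comparison, with a threshold of 0.05; the 7 comparisons were the 6 pairs of groups and non-additivity. SE is the fold change divided by the root of F, and 95% intervals use the fit's degrees of freedom. A floor of 3 counts equals 0.126 CPM at the lowest depth and 0.0762 CPM at the highest. Ratios of pooled counts are scaled by TMM library sizes, and their intervals are exact binomial and cover counting error only, without molecular identifiers.

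Alternatives were DESeq2 1.42.0, library totals, upper-quartile factors, no or a stricter filter (1 CPM in 3 libraries), voom in limma 3.58.1, the compared groups alone, summed class I counts and each library left out. The code was tested on simulated data. Named genes were the 10 members, up to 4 tested genes of each list with the smallest p for H3B-6527 against vehicle, 3 check genes, and the 3 closest genes of members with mean log2 CPM of at least 1. Genes that passed the filter only in groups with, or only in groups without, H3B-6527 were set apart after their values were seen. Further family genes (ALDH1A2, ALDH1A3, ALDH3A1, ALDH3B1, ALDH4A1, ALDH7A1, ALDH16A1, ALDH18A1) and single markers were named after their values were seen. The members and lists were chosen with earlier results of these data known.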

Additional observations from a re-analysis of the deposited data

How the results depend on the processing

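No paired analysis was possible because the labels give no replicate numbers or pairing, and the numbers used here only follow the order of the samples. Of the calls against vehicle with H3B-6527 or the combination, the 6 rises and 1 fall among the 9 genes other than ADH1C held under every alternative run, and DESeq2, library totals and the compared groups alone added a fall of ADH4 with H3B-6527. For the combination against lenvatinib, ADH5 lost its call with library totals, without a filter, and without lenvatinib replicate 2 or 3 or combination replicate 2 or 3. ALDH3A2 lost its call without lenvatinib replicate 3 or combination replicate 1 or 2. ADH6 was added as a rise in 6 of 13 alternatives, and the other calls on the 9 genes held. For lenvatinib against vehicle, 0 genes were called, against 245 with DESeq2, 41 without a filter, 6 with voom, 189 with the groups alone and 0 to 13 with a library left out. Members called there were 1 with DESeq2, 1 without a filter and 2 with the groups alone, where summed class I counts (0.76) also passed. For the combination against H3B-6527, 2 genes were called, against 98 with DESeq2, 13 without a filter, 1 with the groups alone and 0 to 16 with a library left out (16 without H3B-6527 replicate 3), and DESeq2 called 1 member. Non-additivity gave 0 genes and 18 with DESeq2. The causes were not tested.

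Log2 values that changed sign were uncalled. ALDH1A1 was 0.0015 with upper-quartile factors and −0.18 to 0.088 with a library left out (H3B-6527 against vehicle), −0.058 and −0.026 to 0.15 (library totals and a library left out, combination against lenvatinib), −0.052 (library totals, combination against vehicle), −0.031 to 0.11 (lenvatinib against vehicle), −0.23 to 0.038 (H3B-6527 against lenvatinib) and −0.043 to 0.24 (non-additivity). ADH4 was −0.081 with library totals, −0.049 with voom and −0.38 to 0.20 with a library left out (combination against lenvatinib), and −0.12 to 0.46 (combination against vehicle). For the combination against H3B-6527, ADH1B was 0.21 with voom, 0.24 in the class I sum and −0.52 to 0.99 with a library left out, ADH1C −0.071 to 0.39, ALDH2 −0.20 to 0.37, ALDH3A2 −0.19 to 0.15 and the class I sum −0.054 to 0.52. ADH1C was −0.57 to 0.69 with lenvatinib against vehicle, and ADH6 −0.028 to 0.15 with H3B-6527 against lenvatinib. For non-additivity, ADH1C was 0.019 with voom and −0.56 to 0.70 with a library left out, ADH1B −1.21 to 0.30, ALDH2 −0.48 to 0.081 and ALDH3A2 −0.32 to 0.018. With 3 tumors per group and 17 or 18 pooled ADH1C counts without H3B-6527, small changes of ADH1C were not detectable.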

Other observations

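Fatty aldehyde genes, the setting of ALDH3A2, were split. Of 16 fatty alcohol and fatty aldehyde genes tested, 8 rose and 5 fell with H3B-6527 against vehicle (median log2 fold change 0.31), with 25.2% of all genes called higher and 24.3% lower. CYP4F3, which adds a hydroxyl group to leukotriene B and to fatty acids, rose by 4.77 ± 0.33 (SE, n = 3 per group, edgeR adjusted p = 1.57e-06). Its close paralog CYP4F2 is in the same list, and estimated counts can be split between them wrongly, so its level is uncertain. AGPS, which makes the ether bond of ether lipids, fell by 1.06 ± 0.11 (adjusted p = 1.22e-05), and the sphingosine phosphate lyase SGPL1, which releases a long-chain aldehyde, fell by 0.79 ± 0.09 (adjusted p = 2.47e-05). The sphingosine kinase SPHK2 rose by 0.78 ± 0.10 (adjusted p = 4.03e-05).

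Of 14 oxidant response genes, 2 rose and 6 fell in the same comparison (median −0.50), with 25.2% of all genes called higher and 24.3% lower. The quinone reductase NQO1 fell by 1.03 ± 0.12 (adjusted p = 2.09e-05), the cystine carrier SLC7A11 by 2.04 ± 0.25 (adjusted p = 3.75e-05) and thioredoxin reductase TXNRD1 by 0.89 ± 0.12 (adjusted p = 7.79e-05). The epoxide hydrolase EPHX1 went the other way and rose by 2.12 ± 0.24 (adjusted p = 2.96e-05), with 567.2 ± 93.1 CPM in combination tumors, 543.8 ± 183.8 CPM in H3B-6527 tumors, 164.8 ± 34.6 CPM in lenvatinib tumors and 125.0 ± 10.5 CPM in vehicle tumors (SD, n = 3).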
